A study of Mus musculus with 36 samples.

Results

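Pla2g2d encodes a secreted phospholipase A2, and it was followed here as 1 gene of the 39017 in a count table of mouse cochlear RNA. It was chosen by its own fold change, adjusted p and sign at each time in these data, as the gene with the largest rise in adrenalectomized (ADX) over sham-operated mice that passed the test and had the same sign at every time. Its difference between ADX and sham is therefore given as a description, with no test. The 36 libraries came from cochleae of CBA/Sca mice aged 12 weeks. Of these, 18 were from sham-operated mice and 18 from ADX mice, with 3 libraries for each status at circadian times (CT) 04, 08, 12, 16, 20 and 24. The labels name the surgery and the time and do not say whether a library is 1 animal, so the spread that p-values measure here is that between libraries and may be technical. Adrenalectomy removes the source of corticosterone and also of aldosterone and adrenaline, so the groups do not separate these hormones. Any hormone replacement, the sex of the mice and the interval after surgery were not stated in the labels or in the study's design text.

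Secreted phospholipases A2 cut fatty acids from the phospholipids of membranes, lipoproteins and vesicles outside the cell, with calcium at the active site. The freed fatty acids are precursors of prostaglandins, leukotrienes and the mediators that end inflammation. The group IID enzyme is best known from lymphoid organs, where dendritic cells and macrophages make it and where it has been described as restraining immune responses. The cochlea is not a lymphoid organ, but the dissected piece carries bone, marrow and blood together with the sensory and lateral wall tissues.

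Pla2g2d (ENSMUSG00000041202) lies on the plus strand of chromosome 4, from 138775735 to 138782046 (GRCm38), among its closest relatives. The 250 bases before its annotated start are shown because they are the stretch next to the gene whose level differed, and because they can be searched for the binding motif of the hormone receptor that adrenalectomy bears on. They are credited to RefSeq (GRCm38.p6, chr4:138775485-138775734, plus strand, 5′ to 3′), and capitals mark a GGGCGG box and a CCAAT box.
Pla2g2d: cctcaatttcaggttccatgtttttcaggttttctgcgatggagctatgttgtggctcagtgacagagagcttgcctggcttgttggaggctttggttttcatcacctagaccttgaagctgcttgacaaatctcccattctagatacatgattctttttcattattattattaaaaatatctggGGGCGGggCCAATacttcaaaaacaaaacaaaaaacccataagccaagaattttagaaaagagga
The GGGCGG box starts 65 bases and the CCAAT box 57 bases before the gene's start. On either strand, GGGCGG was found in 32.9% and CCAAT in 34.5% of the 27025 mouse promoter windows of this length. The glucocorticoid response element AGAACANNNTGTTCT had no match here and is in 0.00370% of the windows. Its shorter part TGTTCT (16.17% of windows), the E-box CACGTG (6.05%) and TATAAA (12.97%) had none either. These letters are not in this window, which says nothing of the factors themselves, and GC content was 39.6%.

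In sham cochlea Pla2g2d was a transcript of middling level, and in ADX cochlea its mean at a given time was 1.78 to 2.89 times the sham mean. Levels are CPM, the counts of a gene relative to the library total after scaling by edgeR's trimmed mean of M values (TMM). At CT04 the 3 sham libraries held 6.63, 10.4 and 7.41 CPM, and the 3 ADX libraries held 23.6, 13.9 and 26.7 CPM. At CT08 the sham libraries held 6.51, 12.0 and 10.7 CPM and the ADX libraries 16.33, 16.12 and 19.8 CPM. At both times every ADX library was above every sham library, and 1 ADX library at CT04 was well below the other 2. At CT12 the sham levels were 6.53, 10.1 and 6.25 CPM and the ADX levels 14.2, 17.1 and 26.4 CPM. At CT16 the sham levels were 6.44, 7.81 and 6.10 CPM and the ADX levels 11.9, 15.99 and 8.37 CPM. The groups did not overlap at either time, although the lowest ADX library at CT16 was close to the highest sham one.

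At CT20 the sham libraries held 7.98, 2.74 and 2.76 CPM and the ADX libraries 7.70, 17.0 and 14.3 CPM. This was the time at which the groups overlapped, because 1 sham library was slightly above the lowest ADX library. The other 2 sham libraries at CT20 had the lowest levels of all 36. At CT24 the sham levels were 5.53, 7.60 and 6.19 CPM and the ADX levels 19.4, 14.3 and 15.7 CPM, with no overlap. Non-overlap at 5 or more of the 6 times was seen in 1 gene of 22556 tested (0.00443%), Pla2g2d itself. ADX libraries all above sham ones were found in 8.07% of genes at CT04, 4.45% at CT08, 5.09% at CT12, 7.1% at CT16, 5.12% at CT20 and 6.03% at CT24. The mean was higher in ADX at all 6 times in 922 genes (4.09%). These counts restate the pattern for which the gene was chosen.

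**Figure D1:**
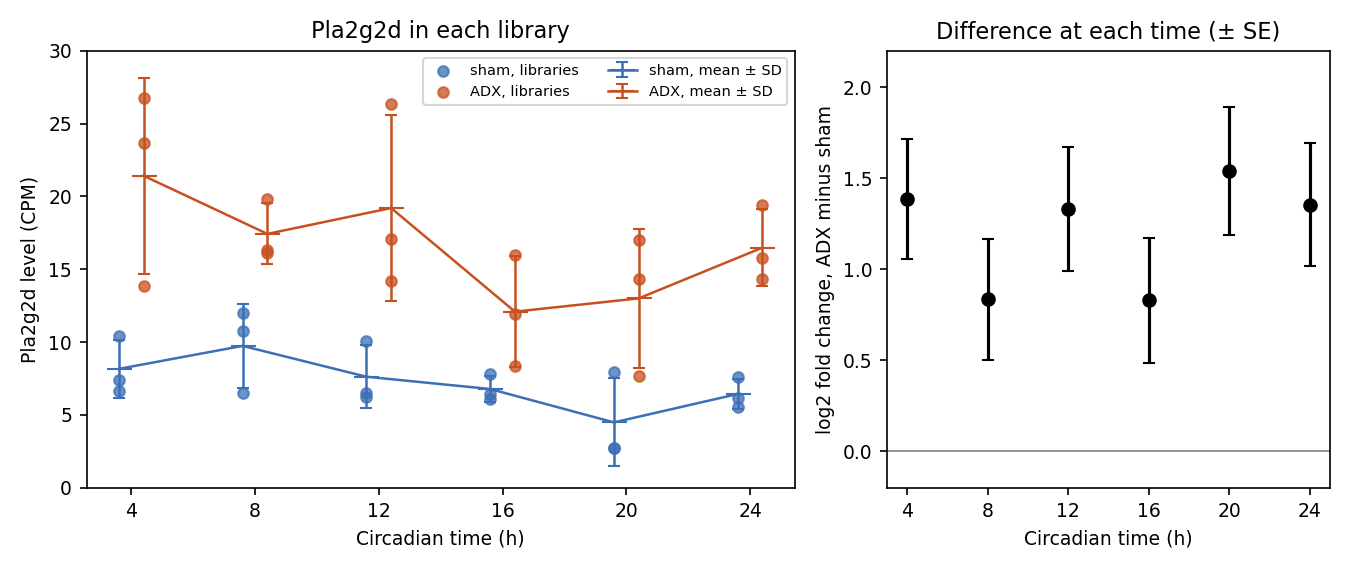
Left, Pla2g2d level in CPM against circadian time in h for each library (points) and each group of 3 (mean ± SD), sham in blue and ADX in orange. Right, the log2 fold change of ADX over sham at each time with its SE, which lies between 0.83 and 1.54; the libraries of the 2 groups overlap at CT20 alone.

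Over the 18 libraries of each status, Pla2g2d averaged 7.21 ± 2.46 CPM in sham (SD over all times, range 2.74 to 11.98, median 6.58) and 16.6 ± 5.21 CPM in ADX (range 7.70 to 26.7, median 16.05), a ratio of 2.30. Of the ADX libraries, 15 were above the highest sham library, and of the sham libraries, 12 were below the lowest ADX library. These counts, too, describe the difference for which the gene was chosen. The raw counts behind these levels were 71 to 292 in sham and 204 to 715 in ADX, from library totals of 18999408 to 28995197 in sham and 20351081 to 28947793 in ADX. The log2 fold change from edgeR over the mean of the 6 times was 1.21 ± 0.14 (SE). By time it was 1.39 ± 0.33 at CT04, 0.83 ± 0.33 at CT08, 1.33 ± 0.34 at CT12, 0.83 ± 0.34 at CT16, 1.54 ± 0.35 at CT20 and 1.36 ± 0.34 at CT24. The smallest differences were at CT08 and CT16, and whether the differences vary between times was not tested.

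The 12 groups can be placed in order of their mean level, and all 6 sham groups came before all 6 ADX groups. This order restates the rise for which the gene was chosen, and how many other genes share it was not counted. From the lowest, the sham means were 4.49 CPM at CT20, 6.44 at CT24, 6.78 at CT16, 7.63 at CT12, 8.16 at CT04 and 9.74 at CT08. The ADX means followed with 12.09 CPM at CT16, 13.004 at CT20, 16.5 at CT24, 17.4 at CT08, 19.21 at CT12 and 21.4 at CT04. No step between neighbours in this order was larger than the larger SD of the pair, including the step from sham CT08 to ADX CT16. Pla2g2d was also variable within groups. The SD of its log2 CPM around the 12 group means was 0.45, higher than in 98.2% of 4552 genes with a mean CPM within 2-fold of its own.

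The rule also required a mean of at least 1 CPM, and the genes next to Pla2g2d under it were immunoglobulin variable segments. The log2 fold change was 1.19 ± 0.26 for Igkv4-91, 0.85 ± 0.20 for Ighv1-63 and 0.71 ± 0.17 for Igkv4-53. Another 14 genes had a larger log2 fold change than Pla2g2d and did not meet the rule, since none of them passed an adjusted p of 0.05. Among them were the muscle genes Ckm (creatine kinase, 1.87 ± 0.79), Myh2 (1.84 ± 0.76) and Myh4 (1.84 ± 0.77), both myosin heavy chains. Their standard errors were more than 5 times that of Pla2g2d, and the sign held at 4, 5 and 4 of the 6 times.

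Variation over the day, averaged over both statuses, was not used to choose the gene and could be tested. Pla2g2d levels followed a 24 h cosine shared by sham and ADX, with a peak-to-trough log2 difference of 0.78 ± 0.19 (SE) and a fitted peak at 7.05 h (edgeR, Benjamini-Hochberg adjusted p = 0.00564). A shared rhythm passed the same threshold in 7410 of 22556 genes (32.9%), so the call itself was common. The size was less so: the median peak-to-trough difference of the called genes was 0.26, and 86.6% of them had a smaller one than Pla2g2d. These genes were of every level and spread, and a gene as variable within groups as Pla2g2d is called only at a large difference. Fitted separately and without a test, the difference was 0.90 ± 0.28 in sham with a peak at 7.96 h, and 0.73 ± 0.26 in ADX with a peak at 6.13 h. The fitted difference in ADX was thus within 1 SE of that in sham. Without the 2 low sham libraries at CT20 the shared difference was 0.62 and its adjusted p 0.0201 (edgeR). With the 6 times as free levels in place of the cosine the adjusted p was 0.0399.

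The table spans whole cochlea, and its markers were checked before the gene was set beside other groups of genes. All 16 cochlear markers had enough counts to be tested. Coch, the cochlin of the spiral ligament, led per length at 4974 ± 549 CPM in sham and 4580 ± 561 in ADX (SD, n = 18). Oc90, also among the 16 and an otoconial protein related to the phospholipases, was at or near 0. Erythroid transcripts were abundant as well, with the globin gene Hbb-bs at 11377 CPM in sham. In ADX versus sham, 162 of 22556 genes (0.718%) were called at an adjusted p of 0.05, 78 higher (0.346%) and 84 lower (0.372%). Scaling by library totals in place of TMM gave 200, of which 141 were higher and 59 lower. The median log2 fold change of all genes was 0.00, and 3522 genes (15.6%) had an unadjusted p under 0.05. The calls were 112 higher and 37 lower without the 4 libraries of highest Gh level, and 35 higher and 78 lower without the 3 of highest muscle score. The count depended on many single libraries, running from 21 to 302 with each left out in turn. Without sham CT20 replicates 2 and 3, which had the lowest plasma cell marker scores, 6 were called, and Pla2g2d had a log2 fold change of 1.07.

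No other secreted phospholipase A2 gene was called, that is, passed an adjusted p of 0.05. Of its 11 relatives 10 could be tested, and 0 were called in ADX versus sham by edgeR, with 0 at an unadjusted p under 0.05. DESeq2 gave an adjusted p to 4 of the 10 and called 0 of these. Their median log2 fold change was -0.07, and 4 were positive. Pla2g2f, whose start is the nearest to that of Pla2g2d, had 152 counts over the 36 libraries and was left out by the filter on low counts.

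Pla2g5, a group V enzyme that binds phosphatidylcholine-rich membranes, had the highest level per length in the family, at 40.2 CPM per kb in sham and 38.4 in ADX. Its log2 fold change was -0.06 ± 0.04. Pla2g12a, a distant and widely expressed relative, was next at 17.2 and 17.5 CPM per kb (0.02 ± 0.03). Pla2g2d was in the third place with 4.27 CPM per kb in sham and 9.85 in ADX, so it kept its place below these genes in both statuses. The SEs of both genes were well below that of Pla2g2d.

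The lower members had little RNA in either status. Pla2g2e, the group IIE enzyme known from hair follicles and fat, was at 2.12 and 2.18 CPM per kb (0.05 ± 0.11). Pla2g1b, the pancreatic digestive enzyme, was at 1.53 and 1.40 (log2 fold change -0.11 ± 0.13), and Pla2g3, the group III relative of bee venom enzyme, at 1.12 and 1.14 (0.02 ± 0.07). Pla2g2a, the group IIA enzyme of inflammation and host defence, was at 0.609 and 0.508 CPM per kb, with a log2 fold change of -0.34 ± 0.17. At 2 to 16 counts per library its difference could not be resolved (adjusted p = 0.325, edgeR). Pla2g12b, Pla2g10, Pla2g2c and Oc90 were also of low level, at 0.524, 0.317, 0.290 and 0.133 CPM per kb over all libraries, with log2 fold changes of 0.28 ± 0.17, -0.09 ± 0.21, -0.12 ± 0.14 and -0.68 ± 0.51. A shared 24 h rhythm was called in 3 of the 10, namely Pla2g2a (adjusted p = 0.0122), Pla2g12a (0.0163) and Pla2g12b (0.00492, edgeR). That share is near the 32.9% called among all genes tested.

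**Figure D2:**
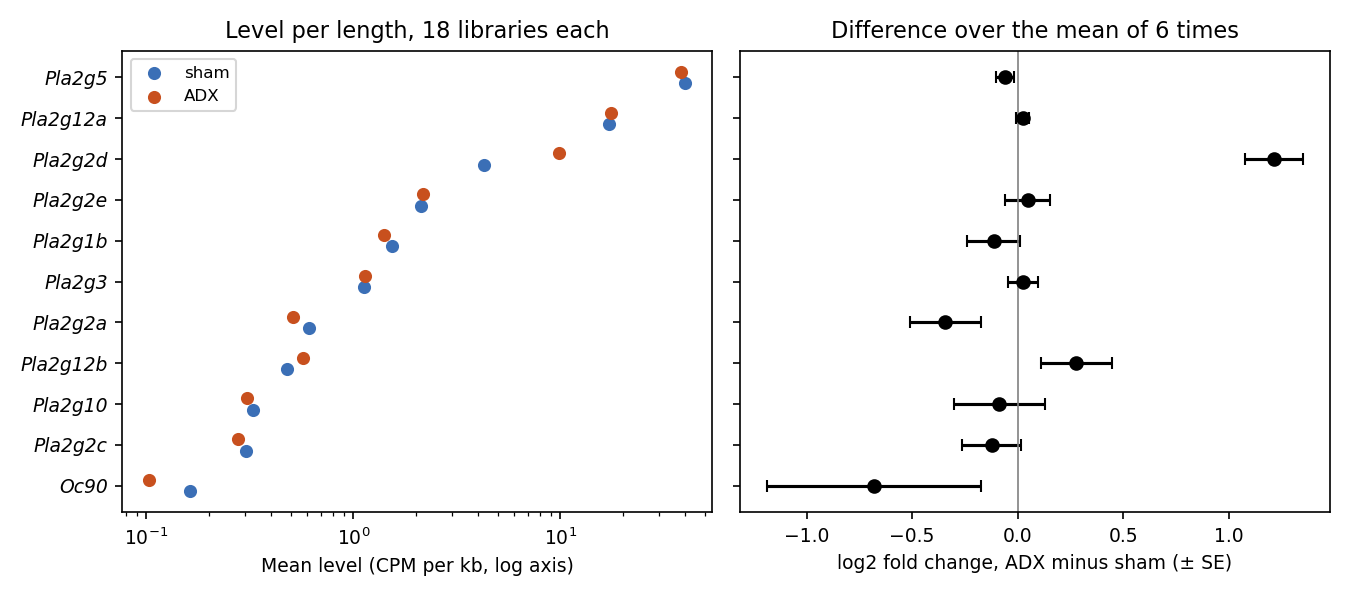
Left, mean level per gene length (CPM per kb, log axis) of Pla2g2d and the 10 relatives tested, in sham (blue) and ADX (orange), 18 libraries each. Right, the log2 fold change of ADX over sham with its SE; that of Pla2g2d is 1.21 and those of the relatives lie between -0.68 and 0.28.

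Most of these relatives share the stretch of chromosome 4 around Pla2g2d. Measured between gene starts, Pla2g2f lay at -18.1 kb and Pla2g2c at -50.9 kb on one side, and Pla2g2a at 56.1 kb, Pla2g5 at 87.7 kb and Pla2g2e at 102 kb on the other. Among the 8 nearest protein-coding genes with enough counts, which reached out to 191 kb, 0 were called in ADX versus sham by edgeR and 1 had an unadjusted p under 0.05. That gene was Ubxn10, a ciliary UBX-domain protein, at 10.4 CPM in sham and 12.9 in ADX (log2 fold change 0.31 ± 0.10, adjusted p = 0.114, edgeR). Of the other neighbours, Pla2g2c, Pla2g5 and Pla2g2e are phospholipase genes. The rest were Gm13030 (0.23 ± 0.14), Vwa5b1 (0.04 ± 0.25), the deubiquitinase gene Otud3 (-0.05 ± 0.04) and the ubiquitin ligase gene Rnf186 (-0.02 ± 0.16). The log2 fold changes of the 8 neighbours lay between -0.12 and 0.31, against 1.21 for Pla2g2d. Pla2g2a, tested and at 56.1 kb, was not among these 8, which took only genes annotated as protein-coding. Its log2 fold change was -0.34 ± 0.17, outside that range.

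The intracellular enzymes that release or trim phospholipids outside the secreted family differed little. Of 16 tested, 1 was called higher and 0 lower, and the median log2 fold change was -0.02. The called gene was Pafah1b3, a catalytic subunit of platelet-activating factor acetylhydrolase, at 36.95 ± 5.50 CPM in sham and 45.0 ± 7.85 in ADX (0.28 ± 0.07, adjusted p = 0.0412, edgeR). With each of the 36 libraries left out in turn, it passed 17 times.

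Genes that turn the released fatty acids into mediators were, where called, lower in ADX. Of 24 tested, edgeR called 0 higher and 3 lower, 19 had a negative log2 fold change, and the median was -0.06. An unadjusted p under 0.05 was found in 11, and DESeq2 called 5. Ptgis, which makes prostacyclin, was at 71.97 ± 9.11 CPM in sham and 63.6 ± 6.15 in ADX (-0.18 ± 0.04, adjusted p = 0.0372). Hpgd, which inactivates prostaglandins, fell from 22.8 ± 2.57 to 19.7 ± 1.86 CPM (-0.21 ± 0.05, adjusted p = 0.0381, edgeR). Alox5, the first enzyme of leukotriene synthesis, fell from 39.2 ± 4.70 to 34.2 ± 6.13 CPM (-0.21 ± 0.05, adjusted p = 0.0429, edgeR). These 3 genes make and remove different mediators. With each library left out in turn they passed 23, 19 and 16 times of 36, and each overlapped between the statuses.

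Receptors for these mediators gave 0 calls of 22 tested by edgeR, with a median of -0.05. Of these, 9 had an unadjusted p under 0.05, and DESeq2 called 1, Fpr1. Per length the highest were 3 receptors of myeloid cells. Fpr2 was at 24.9 CPM in sham and 22.4 in ADX (-0.17 ± 0.07), the leukotriene B4 receptor gene Ltb4r1 at 23.8 and 21.4 (-0.16 ± 0.06), and Fpr1, the formyl peptide receptor, at 17.95 and 15.7 (-0.22 ± 0.06).

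Dendritic cells and macrophages are the cells in which the enzyme is best known, and in edgeR's test none of their markers was called higher in ADX. Of 14 conventional dendritic cell markers, 0 were called by edgeR, and 0 of the 11 to which DESeq2 gave an adjusted p were called by it. Of the 14, 4 had an unadjusted p under 0.05, 11 were positive, and the median log2 fold change was 0.06. The 4 were Ccr7 (0.25 ± 0.08), Batf3 (0.29 ± 0.11) and Ccl17 (0.30 ± 0.13), higher in ADX, and Mgl2 (-0.14 ± 0.05), lower. Per length the highest were Fscn1, the actin-bundling fascin of mature dendritic cells, at 27.0 CPM in sham and 28.2 in ADX, followed by the calcium channel subunit gene Cacnb3 (59.2 and 61.1) and the lectin gene Clec10a (9.01 and 9.19). Of 9 plasmacytoid dendritic cell markers, edgeR called 0 higher and 1 lower, 4 had an unadjusted p under 0.05, and the median was 0.09. DESeq2 called 3, of which the transcription factor gene Spib was higher (0.34 ± 0.10 by edgeR, adjusted p = 0.0898 by edgeR and 0.0439 by DESeq2) and the lectin gene Siglech and Klk1 were lower. Without the 4 libraries of highest Gh level, edgeR called Spib as well (adjusted p = 0.0268). The gene called by edgeR in all libraries was the kallikrein gene Klk1, which glands also express, at 1.65 ± 0.52 CPM in sham and 1.12 ± 0.38 in ADX (-0.55 ± 0.13, adjusted p = 0.0429, edgeR). It passed 12 times of 36 with each library left out in turn.

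Of 16 macrophage markers 0 were called by edgeR, 3 had an unadjusted p under 0.05, DESeq2 called 1, the scavenger receptor gene Cd163, as lower, and the median was -0.04. Their highest members per length were the complement genes C1qa (109.9 CPM in sham, 107.6 in ADX), C1qc (99.8 and 98.1) and C1qb (91.2 and 87.8). In bulk RNA of this kind, a change in the number of cells of a type and a change in RNA per cell cannot be told apart.

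Markers of the antibody-making lineage were mostly higher in ADX, by their fitted values, in the direction of Pla2g2d. All 14 B lymphocyte markers tested were higher in ADX by their log2 fold change (median 0.30). Of them, 12 had an unadjusted p under 0.05, 1 was called by edgeR and 7 by DESeq2. Without the 4 libraries of highest Gh level edgeR called 10 of the 14, and without the 3 of highest muscle score 0. The gene called in all libraries was Ighm, the heavy chain of IgM, which rose from 873.7 ± 128.9 to 1097 ± 203 CPM (0.33 ± 0.08, adjusted p = 0.0489, edgeR). Among 12 plasma cell markers 11 were positive, with a median of 0.28, and 9 had an unadjusted p under 0.05. Jchain, which joins IgA and IgM into polymers, was the 1 called by edgeR, and rose from 96.6 ± 22.0 to 133 ± 28.8 CPM (0.46 ± 0.10, adjusted p = 0.0376). Both genes meet the rule by which Pla2g2d was chosen as the largest rise, so their smaller changes follow from that choice. Over all times the statuses overlapped in both genes, as they also did in Pla2g2d. With each library left out in turn, Ighm passed 10 and Jchain 22 times of 36, and with limma-voom the adjusted p of Ighm was 0.0553. With the B lymphocyte score of each library as a covariate the log2 fold change of Pla2g2d was 0.94, and with the plasma cell score it was 0.95.

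Other blood and immune lists were mixed or had negative medians. Of 15 T and NK lymphocyte markers 6 had an unadjusted p under 0.05, and edgeR called 1, Cd2, an adhesion receptor, which rose from 11.09 ± 1.75 to 13.9 ± 2.56 CPM (0.32 ± 0.08, adjusted p = 0.0429, edgeR), while the list's median was -0.07. Cd2 passed 16 times of 36 with single libraries left out. With the B lymphocyte score as a covariate its log2 fold change was 0.07 (adjusted p = 0.287, edgeR). DESeq2 called Cd2 and, in the other direction, Cd3d of the T cell receptor complex (-0.26 ± 0.07 and adjusted p = 0.0599 by edgeR, 0.0151 by DESeq2), which edgeR also called without the 3 libraries of highest muscle score (adjusted p = 0.0398). All 15 neutrophil and granulocyte precursor markers were negative, with a median of -0.19 and an unadjusted p under 0.05 in all 15. Of these, 3 were called lower by edgeR and 7 by DESeq2. The 3 were the chitinase-like gene Chil3 (-0.39 ± 0.08), the secreted factor Retnlg (-0.25 ± 0.06) and the collagenase gene Mmp8 (-0.25 ± 0.06), which passed 29, 17 and 8 times of 36 with single libraries left out. All 12 erythroid markers were negative with 0 called by edgeR or DESeq2, 8 at an unadjusted p under 0.05 and a median of -0.17.

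Lymphoid stroma and vessel markers gave 0 calls of 10 tested by edgeR and 0 of the 6 to which DESeq2 gave an adjusted p, with 2 at an unadjusted p under 0.05 and a median of 0.00. Their highest members per length were Vcam1 (291 CPM in sham, 279.5 in ADX), Ltbr (46.8 and 45.9) and Pdpn (25.6 and 24.9). The chemokine genes Ccl19 and Ccl21a, defining genes of lymph node stroma, were left out by the filter with 174 and 12 counts over all 36 libraries.

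Tissue carried over in dissection was also compared. Skeletal muscle markers had a median log2 fold change of 1.29 with 0 of 15 called by edgeR, 11 at an unadjusted p under 0.05 and 4 called by DESeq2. Without the 3 libraries of highest muscle score, all of them ADX, the log2 fold change of Pla2g2d was 1.19. Pituitary hormone markers had a median of -0.69 with 0 of 7 called by edgeR, 0 of 5 with an adjusted p by DESeq2 and 0 at an unadjusted p under 0.05. Without the 4 libraries of highest Gh level the value for Pla2g2d was 1.31. Airway mucosa markers (0 of 9 called by edgeR, 0 of 7 with an adjusted p by DESeq2, 3 at an unadjusted p under 0.05, median 0.16) and cochlear markers (0 of 16 by edgeR, 1 by DESeq2, 3 at an unadjusted p under 0.05, median -0.03) had medians nearer 0.

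Genes that glucocorticoids induce were compared because the surgery removes their hormone. Of 24 tested, 21 were negative, with a median of -0.08 and a range from -0.42 to 0.03. An unadjusted p under 0.05 was found in 8, and DESeq2 called 3 of the 23 to which it gave an adjusted p. Among the 24, edgeR called 1, Dusp1, a phosphatase that switches off MAP kinases. Dusp1 fell from 42.1 ± 5.45 to 35.9 ± 5.16 CPM (-0.23 ± 0.04, adjusted p = 0.0206, edgeR). It passed 36 times of 36 with single libraries left out, but not without the 4 libraries of highest Gh level (-0.19, adjusted p = 0.0713, edgeR).

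In all, 12 list genes other than Pla2g2d were called by edgeR, and several of these calls changed with the libraries used. Without the 4 libraries of highest Gh level 6 of the 12 were called. Those lost were Dusp1, Ptgis (adjusted p = 0.0759), Hpgd (0.0931), Alox5 (0.0950), Klk1 (0.103) and Jchain (0.0614, edgeR). Without the 3 of highest muscle score 6 were called. Without the 2 sham libraries of lowest plasma cell score 0 of the 12 were called, although their log2 fold changes were 0.708 to 1.16 times those in all libraries. The value for Ighm was then 0.31 and that for Klk1 -0.57.

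**Figure D3:**
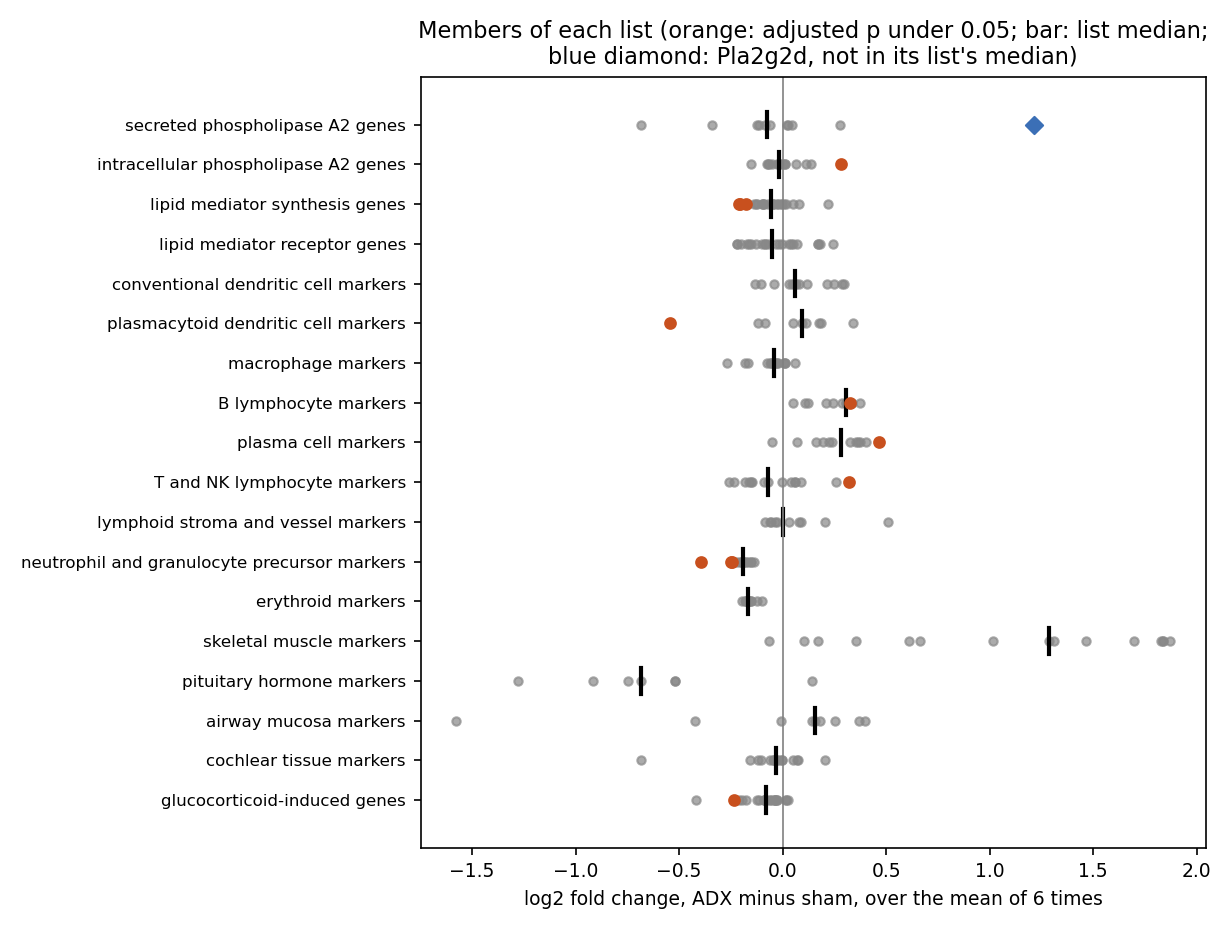
Log2 fold change of ADX over sham (x axis) for the members tested of each of the 18 lists (y axis). Points are genes, orange those with an adjusted p under 0.05, black bars the list medians and the blue diamond Pla2g2d, which at 1.21 is set apart from its own family and left out of that family's median of -0.07.

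The libraries also differed within groups, and these deviations were compared with a score for each of 13 marker lists. Their size entered the adjusted p by which the gene was chosen, but their relation with the scores did not. The score is the mean centred log2 CPM of the list's members. After the 12 group means were removed, Pla2g2d went with the B lymphocyte score with Pearson's r = 0.55 (n = 36 libraries, permutation within groups, two-sided, p = 0.00543, adjusted p over 13 lists = 0.0706). Spearman's rho was 0.53 (permutation p = 0.00935, adjusted p = 0.115). Leaving out the 2 libraries with the most extreme scores, r was 0.44, and it was 0.53 within sham and 0.57 within ADX. This relation did not pass an adjusted p of 0.05.

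For the plasma cell score r was 0.61 (n = 36 libraries, permutation p = 0.0147, adjusted p = 0.0955) and rho 0.50 (permutation p = 0.0177, adjusted p = 0.115). Here r was 0.81 within sham and 0.34 within ADX, and without sham CT20 replicates 1 and 2 it was 0.43. Sham CT20 was the group that spread most: its replicates 2 and 3 had the lowest plasma cell scores of all libraries (-1.04 and -0.72) and the lowest Pla2g2d levels. For conventional dendritic cell markers r was 0.38 (n = 36 libraries, permutation p = 0.0567, adjusted p = 0.246) and rho 0.42 (permutation p = 0.0269, adjusted p = 0.117). The other 10 lists had r between -0.12 and 0.25, and some of them differed in sign by status. For macrophage markers r was 0.64 within sham and -0.25 within ADX, and for T and NK markers 0.54 and -0.64, with no test of these differences. No list passed an adjusted p of 0.05, and the B lymphocyte and plasma cell lists were the 2 under an unadjusted p of 0.05 by r.

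**Figure D4:**
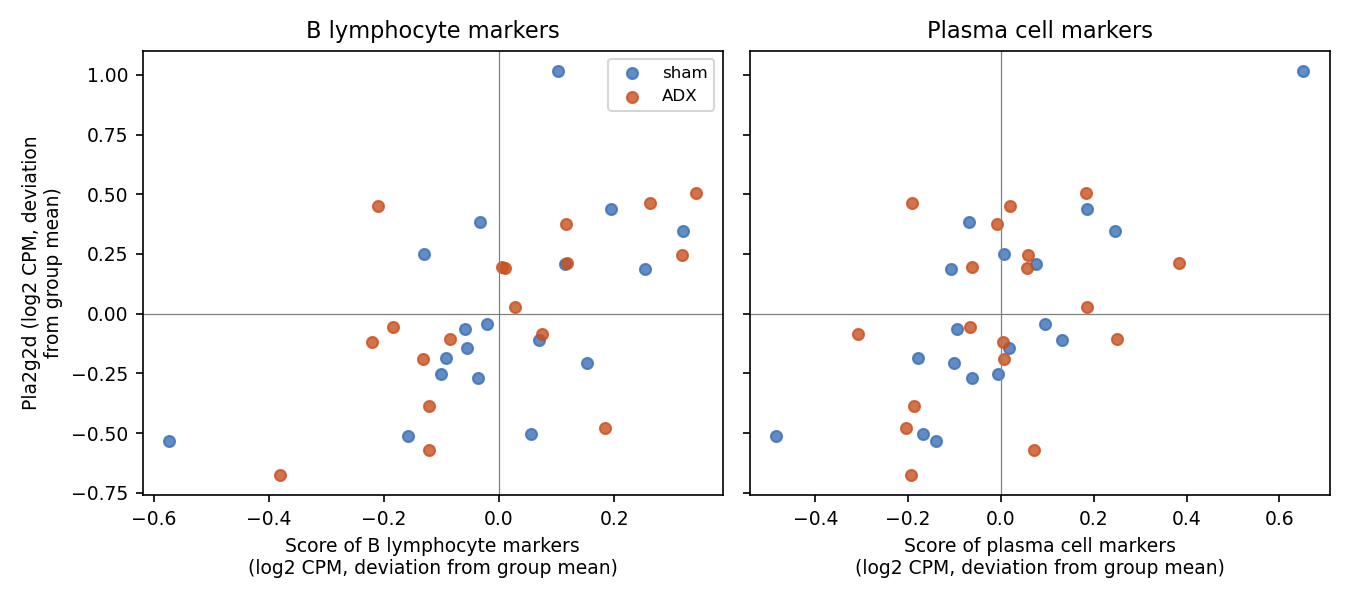
Deviation of Pla2g2d (log2 CPM, y axis) against that of the B lymphocyte score (left) and of the plasma cell score (right), each from the mean of its group of 3, for 36 libraries, sham in blue and ADX in orange. The points rise from left to right with r of 0.55 and 0.61, and sham CT20 replicate 1 is the highest point in both panels.

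The genes whose level was most like that of Pla2g2d were found by Pearson's r of log2 CPM among 17710 genes with a mean of at least 1 CPM. These r describe the libraries, whose depth and tissue mix all genes share, and carry no p. Over all 36 libraries, where the ADX difference also enters, the highest were C1s1, a protease of the classical complement pathway (0.79), H2-Aa, an MHC class II chain (0.76), Cfb, factor B of the alternative complement pathway (0.76), Igfbp4, which binds insulin-like growth factors (0.75), and Jchain (0.75). Another 3 were the short genes Gm24022, Gm22175 and Gm25747 (all 0.74), of 70 to 78 bases. They lie on chromosome 12 between 1.91 and 2.42 kb from Ighm, and reads of that locus and of these genes may not be separable in the counts. An r over 0.5 was found in 3.09% of genes. Without the 2 libraries in which Pla2g2d was farthest from its median, sham CT20 replicates 2 and 3, the r of these 8 genes was 0.59 to 0.75.

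Since this likeness already holds the ADX difference, the levels of these genes are given with no test. Cfb was at 14.3 CPM in sham and 17.5 in ADX, H2-Aa at 149 and 173, and C1s1 at 27.8 and 31.2. Within groups, where status and time no longer enter, 8 other genes led, and none was in both sets. They were Pcdh12, a protocadherin of vessel walls (r = 0.76), the mitochondrial translation factor Mtif3 (0.76), the MHC class I gene H2-Q4 (0.74), Hfe, which takes part in iron sensing (0.73), Snapc3, of the complex that activates small nuclear RNA genes (0.71), the MHC class II pseudogene H2-Ea-ps (0.71), Mzb1, a chaperone of antibody-secreting cells (0.71), and the thymosin gene Tmsb10 (0.71). An r over 0.5 within groups was found in 2.65% of genes. None of these 8 was called in ADX versus sham by edgeR, and their log2 fold changes lay between -0.05 and 0.22.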

How the data were processed

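Cochlear messenger RNA was sequenced as single reads from stranded libraries, per the labels' protocols. The authors deposited read counts per Ensembl gene, made from reads aligned with STAR 2.4.0i to mm10, per the submitters' processing notes. The counting program, annotation and strand setting are each not given in the sources used here, so overlapping and antisense genes may share reads. Column names gave a time 1 h earlier than the labels for 30 of 36 columns; labelled times were used. Symbols came from GENCODE M21 for 37607 of 39017 identifiers (96.4%).

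Genes were kept by edgeR's filterByExpr (22556; the 16461 left out held 0.0779% of counts) and scaled by TMM (factors 0.981 to 1.03). edgeR 4.0.16 (R 4.3.3) fitted 12 group means to 36 libraries with its quasi-likelihood test, contrasted the mean of 6 times, and fitted a shared 24 h cosine in a second model with status. P-values were adjusted by Benjamini-Hochberg over all genes kept, with a threshold of 0.05. Relations used 100000 permutations within groups and a prior count of 1. Levels per length used the table's gene length. Scripts were tested on simulated data.

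The gene and the 18 lists were chosen with earlier results of these data known. Named are the secreted phospholipases, called members of the other lists (otherwise the 3 highest per length of most lists), the 8 nearest neighbours, the 8 most alike genes by each measure, and the genes next under the rule. Cochlear, erythroid and stroma genes beyond this, and Pla2g2f counts, serve as checks. Spib, Siglech, Cd163, Cd3d, Ccr7, Batf3, Ccl17 and Mgl2 were named after their values were seen. An adjusted p that DESeq2 did not give was not counted as tested. Alternatives were DESeq2 1.42.0, limma 3.58.1 (voom, and log2 of CPM plus 1), library totals, no filter, a replicate block, marker scores as covariates, other prior counts, column times and libraries left out. The plasma cell covariate and the fit without the 2 libraries of lowest plasma cell score were chosen after seeing the data.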

Additional observations from a re-analysis of the deposited data

How the results depend on the processing

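The log2 fold change of Pla2g2d stayed between 0.94 and 1.33 in all alternatives and with any 1 of the 36 libraries left out (1.16 to 1.33); it was 1.21 with DESeq2 and 1.11 with limma on log2 of CPM plus 1. The adjusted p of its shared rhythm stayed under 0.05 throughout (0.00300 to 0.0131 with a library left out, 0.0392 without the 4 libraries of highest Gh level). The number of genes called in ADX versus sham, a count past a threshold rather than a fold change, varied with the setting. It was 630 with DESeq2 (263 higher, 367 lower), 398 with the B lymphocyte score, 914 with the conventional dendritic cell score and 716 with the plasma cell score as a covariate, and 6 without the 2 libraries of lowest plasma cell score; the cause was not tested. With a library left out it ran from 21 to 302 and moved by over 1.5 times for 20 of the 36. It was 75 and 30 without ADX CT04 replicates 1 and 3, 57 without ADX CT08 replicate 3, 25 without ADX CT12 replicate 3, 77 and 24 without ADX CT16 replicates 1 and 2, 266 without ADX CT20 replicate 3 and 21 without ADX CT24 replicate 1. Among sham libraries it was 98 and 21 without CT04 replicates 1 and 2, 53 without CT08 replicate 3, 94 and 26 without CT12 replicates 2 and 3, 97 and 68 without CT16 replicates 2 and 3, 302, 81 and 25 without CT20 replicates 1, 2 and 3, and 95 and 34 without CT24 replicates 1 and 2.

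Same-numbered libraries of different groups did not, in the median, deviate together (median correlation of deviations -0.00133, against -1.26e-04 for other numbers, lowest -0.262). A median over all genes and groups cannot show a pairing that holds for some groups or for few genes. With the replicate number as a block, 152 genes were called, the log2 fold change of Pla2g2d was 1.22 and the adjusted p of its rhythm 0.00708. Of the 12 list genes other than Pla2g2d called by edgeR, 10 were called with the block; Ighm (adjusted p = 0.0531) and Klk1 (0.0504) were not. The number called was 11 with library totals, 12 without the filter, 11 with limma-voom, 12 with DESeq2, and 1, 6 and 5 with the B lymphocyte, conventional dendritic cell and plasma cell scores as covariates.

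Of the 13 marker lists, 0 passed in the relation within groups; 1 passed without the 3 libraries of highest muscle score and 1 with the replicate block, both times B lymphocyte markers (adjusted p = 0.0316 and 0.0182 by permutation). With a library left out 0 to 2 passed: B lymphocyte markers without ADX CT16 replicate 2 or 3, sham CT20 replicate 3 or sham CT24 replicate 1 or 2, and conventional dendritic cell markers without sham CT20 replicate 3. Lists with r near 0 changed sign. For airway mucosa r was 0.0255 with a prior count of 5, 0.0382 without the muscle-high libraries, 0.147 without the Gh-high libraries and 0.0249 with the block. Without the muscle-high libraries r was 0.132 for lymphoid stroma, 0.0260 for erythroid and -0.0922 for muscle markers. For T and NK markers it was -0.0982 without the Gh-high libraries, -0.0120 without the 2 libraries of lowest plasma cell score and -0.0318 with the block. It was 0.0788 for cochlear markers without the Gh-high libraries and 0.00878 for neutrophil markers without the plasma-low ones. With a library left out, r ran from -0.128 to 0.133 for T and NK, -0.258 to 0.0157 for stroma, -0.205 to 0.00938 for neutrophil, -0.123 to 0.102 for erythroid, -0.0594 to 0.185 for muscle, -0.0973 to 0.161 for pituitary, -0.0801 to 0.0768 for airway and -0.199 to 0.0260 for cochlear markers. The depth gave Pla2g2d at least 71 counts in every library, while relatives with under 30 counts in each library, such as Pla2g2a and Pla2g10, were resolved poorly.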
